A study of Mus musculus with 24 samples.

Results

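Long intergenic noncoding RNAs (lincRNAs) were examined in mouse carotid artery after ovariectomy and treatment with vehicle, estradiol (E2), estetrol (E4) or tamoxifen (TAM). The members were the genes with the biotype lincRNA in GENCODE mouse release 21 whose mean level over the 24 libraries was at least 2 CPM (counts scaled to the library total). This selection gave 272 of the 5621 lincRNA genes listed, and of the 55421 genes in all. TMM factors were applied to the members' values by library and by group. They were not applied to printed means over several groups, to values per kilobase of exon or to sums of markers. The level itself chose the members, so their abundance is given below as a description. Without 1 of the groups, 5 members would fall under 2 CPM, 2 of them without vehicle, 2 without E2 and 1 without E4. A further 1852 lincRNA genes had 0 counts in every library. All 272 members passed the filter on low counts and were tested.

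LincRNAs are spliced or unspliced transcripts of RNA polymerase II, with few exceptions, that lie between protein-coding genes and are not translated into a known protein. Some act in the nucleus as scaffolds of nuclear bodies or of chromatin, some bind proteins or microRNAs in the cytoplasm, and some are the precursors from which microRNAs or small nucleolar RNAs (snoRNAs) are cut. Estrogens act through the estrogen receptors, of which ERα binds DNA as a dimer at estrogen response elements. E2 is the main ovarian estrogen, E4 is an estrogen of the fetal liver, and TAM is a selective estrogen receptor modulator.

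All mice were C57BL/6 females that had been ovariectomized and, per the labels, were 9 weeks old, with 6 libraries per group, each from its own numbered animal. The vehicle group carries the title OVX and a placebo entry, the E2 and TAM groups carry estradiol and tamoxifen entries, and the 6 E4 libraries carry E4 in the title but a placebo entry in the treatment field. The series' design text gives 3 weeks of treatment, the methods of the study a shorter one. By the study's methods, E2 and E4 were given in subcutaneous pellets whose unequal hormone contents were chosen to give a like estrogenic exposure, given their affinity for ERα. How TAM was given is not stated in the sources used here. The kit selected polyadenylated RNA, so transcripts without a poly(A) tail are seen only in part.

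Among the members are 22 whose gene body holds an annotated microRNA on the same strand, and RefSeq gave mature sequences for 18 of these (assembly GRCm38.p6). The microRNAs themselves were not measured. Those shown here belong to hosts whose RNA differed between treatments or between libraries below, in lower case with the seed, bases 2 to 8, in capitals. Mir142hg (chromosome 11, 87755577 to 87757270, plus strand) holds miR-142a, known from blood cells, and A430106G13Rik (chromosome 1, 137966531 to 137969918, plus strand) holds miR-181b.
miR-142a-5p: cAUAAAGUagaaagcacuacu
miR-142a-3p: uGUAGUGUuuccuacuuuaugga
miR-181b-5p: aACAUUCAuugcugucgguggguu
Mir17hg (chromosome 14, 115042879 to 115046727, plus strand) is the host of a cluster in which miR-17 and miR-20a share a seed, as do miR-19a and miR-19b.
miR-17-5p: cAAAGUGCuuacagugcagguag
miR-20a-5p: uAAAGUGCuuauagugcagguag
miR-18a-5p: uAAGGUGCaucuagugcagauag
miR-19a-3p: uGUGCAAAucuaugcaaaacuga
miR-19b-3p: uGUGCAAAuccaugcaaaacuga
miR-92a-3p: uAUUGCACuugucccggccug
6720427I07Rik (chromosome 13, 48532905 to 48546500, minus strand) holds 3 let-7 microRNAs with the same seed.
let-7a-5p: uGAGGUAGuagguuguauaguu
let-7d-5p: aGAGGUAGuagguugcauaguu
let-7f-5p: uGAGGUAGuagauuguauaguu
Further hosts carry miR-31 (AL805899.1), miR-101a (E130102H24Rik) and miR-138 (C78859).
miR-31-5p: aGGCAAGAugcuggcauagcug
miR-101a-3p: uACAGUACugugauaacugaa
miR-138-5p: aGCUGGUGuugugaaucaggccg

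With the members on 1 chromosome left out of this search, 118 members matched a promoter in the RefSeq table, the stretch from 250 bases before to 50 bases after the start. Each was searched on both strands for the arm of the estrogen response element, GGTCA or its complement TGACC, and for the full palindrome, in which GGTCA and TGACC lie 3 bases apart. The arm was found in 50 of the 118 (42.4%), as compared with 40.5% of all 32851 promoters, with no chromosome left out. The palindrome was found in 0 of the 118 and in 0.07% of all promoters. A match of these letters is a description only. The promoters of Malat1 (chr19:5802623-5802922, minus strand) and Gm15408 (chr5:149006712-149007011, plus strand) are shown because Malat1 was the most abundant member lowered by E4 and Gm15408 had the highest fold change with E2. The arm is in capitals, with 1 match in the first and 0 in the second.
Malat1: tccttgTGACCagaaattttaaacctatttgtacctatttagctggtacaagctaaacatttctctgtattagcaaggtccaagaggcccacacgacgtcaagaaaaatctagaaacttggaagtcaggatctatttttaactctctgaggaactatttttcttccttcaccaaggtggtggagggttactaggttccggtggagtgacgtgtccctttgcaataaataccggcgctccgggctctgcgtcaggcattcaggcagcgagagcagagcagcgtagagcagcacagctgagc
Gm15408: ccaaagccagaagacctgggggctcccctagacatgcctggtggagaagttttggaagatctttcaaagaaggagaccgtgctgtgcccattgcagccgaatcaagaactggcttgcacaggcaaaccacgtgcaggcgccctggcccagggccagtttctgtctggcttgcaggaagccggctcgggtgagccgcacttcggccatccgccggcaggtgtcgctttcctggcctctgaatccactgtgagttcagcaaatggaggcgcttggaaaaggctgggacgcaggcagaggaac

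The total count per library was 24647246 to 64221401, and the members together took 1.03% to 1.90% of it, with a mean of 1.30%. Their level was uneven. A mean of at least 100 CPM was found in 13, between 10 and 100 CPM in 75, and below 10 CPM in 184, and the 5 most abundant held 62.0% of all member counts. Within groups, the standard deviation of the median member was 20.9% of its mean. Libraries OVX C5 and TAM C35 stood apart from the rest of their groups in markers of sympathetic neurons, all 10 of which were tested and none of which was at 0 throughout. The summed CPM of these markers was 40.9 in OVX C5 and 181.3 in TAM C35, with group medians of 2910 and 3676. Reads in exons shared by genes were divided between them also where the genes lie on opposite strands, and 121 of the 272 members share exon bases with another gene. Of the 145 members matched by symbol in RefSeq, 9 are listed there as protein-coding. In bulk arteries, fewer cells of a type and less RNA per cell cannot be told apart.

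With E4, 49 lincRNAs fell and 15 rose, while 13 changed with E2 and 6 with TAM. Without libraries OVX C5 and TAM C35 48 fell and 22 rose with E4, 15 fell and 12 rose with E2, and 2 fell and 1 rose with TAM. The shares of all genes in that fit were not computed, so these counts cannot be set against a background. A member was called at an adjusted p under 0.05 (quasi-likelihood F test of edgeR, p-values adjusted by Benjamini-Hochberg over the 25033 genes tested) and an absolute log2 fold change over 1. With E4 as compared with vehicle, 10 members (3.68%) were called, 2 higher and 8 lower, and 2.51% of all genes tested were called, 0.823% higher and 1.69% lower. Dropping the fold threshold, 15 members (5.51%) rose and 49 (18%) fell with E4, as compared with 9.52% and 12.5% of all genes. Among 13803 protein-coding genes of at least 2 CPM, 1756 rose and 1861 fell, and among 517 antisense RNAs of that level, 64 rose and 57 fell. The difference between these classes was not tested. The 10 called include A730020M07Rik, whose selection used this difference, as described with its values. The groups did not overlap in 29 members (10.7%) with E4, as compared with 9.37% of all genes.

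With E2 as compared with vehicle, 3 members (1.10%) were called, 2 higher and 1 lower, near the background of 1.27%. Without the fold threshold 5 rose (1.84%) and 8 fell (2.94%), as compared with 2.88% and 1.28% of all genes. The 8 also include A730020M07Rik. The groups did not overlap in 7 members (2.57%), as compared with 2.83%. With TAM as compared with vehicle, 1 member was called (0.368%, background 0.308%), and 1 rose and 5 fell without the fold threshold (0.368% and 1.84%, background 1.29% and 0.919%). The groups did not overlap in 6 members (2.21%), as compared with 2.58%. The median log2 fold change of the members was -0.07 with each of the 3 treatments, and that of all genes 0.01, -0.01 and -0.00 with E2, E4 and TAM. These 3 comparisons share the vehicle libraries.

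E4-treated and E2-treated mice, compared directly, differed in 5 members (1.84%, background 2.47%), all lower with E4. These include Mir142hg and A430106G13Rik, whose selection used this difference. Without the fold threshold 11 were higher (4.04%, background 3.55%) and 26 lower (9.56%, background 8.97%). TAM and E2 differed in 6 members (2.21%, background 1.65%), 1 higher and 5 lower with TAM, and without the fold threshold in 6 higher and 15 lower (2.21% and 5.51%, background 1.93% and 4.51%). TAM and E4 differed in 0 members by edgeR (background 0.196%) and in 1 by DESeq2, while 1 member had an adjusted p under 0.05 (background 0.34%). Members with an unadjusted p under 0.05 in that comparison numbered 29 of 272, as compared with 2282 of all 25033 genes.

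**Figure D1:**
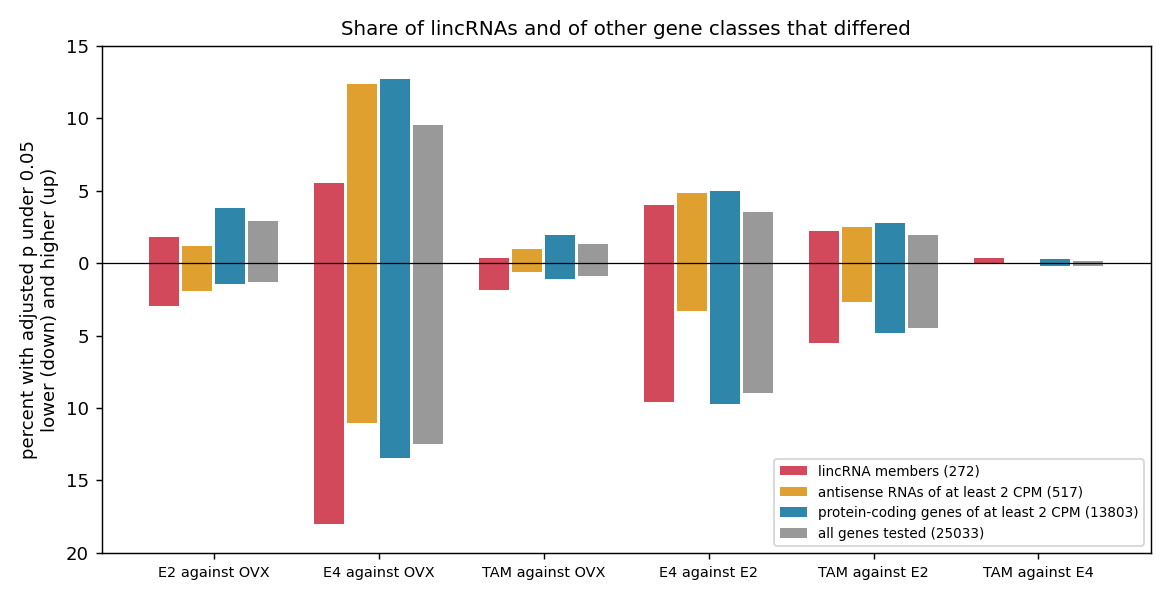
Percent of lincRNA members and of 3 other gene classes with an adjusted p under 0.05 in each of the 6 comparisons, drawn upward for higher and downward for lower expression in the first-named group. With E4 against vehicle, 18% of the members lie below the line and 5.51% above it.

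**Figure D2:**
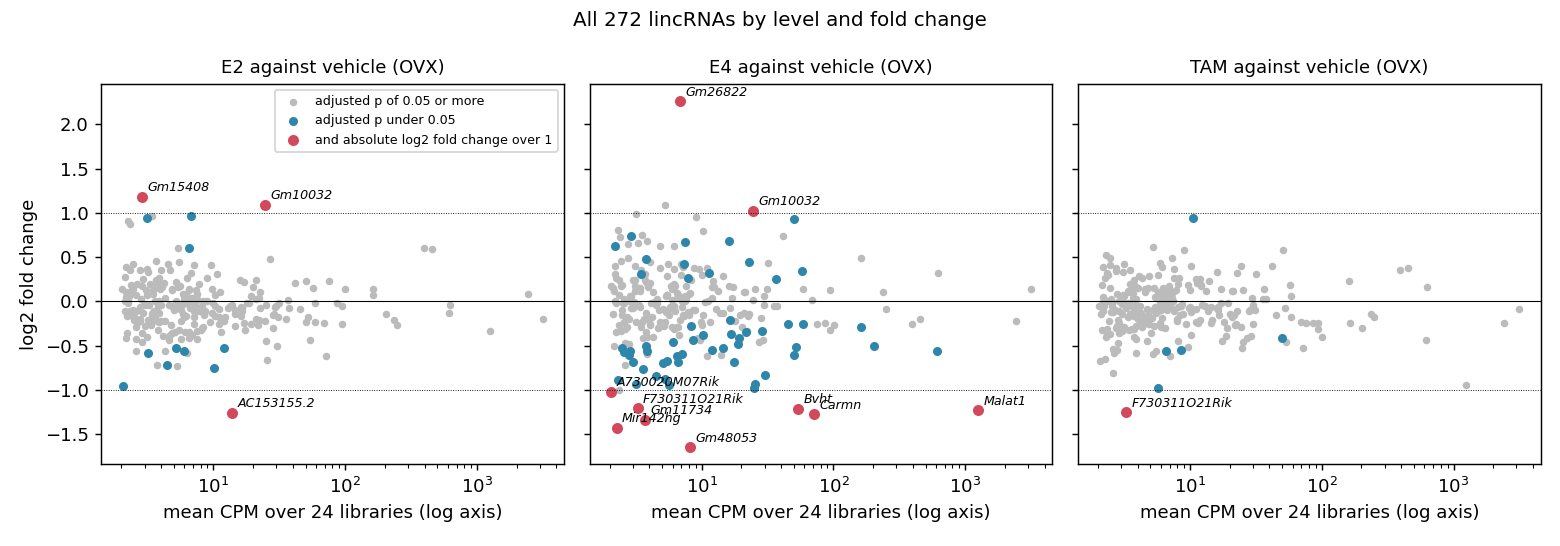
Log2 fold change against vehicle by mean CPM (TMM-scaled, log axis) for the 272 members with E2, E4 and TAM, with called members in red, other members of adjusted p under 0.05 in blue, the rest in grey, and dotted lines at a log2 fold change of 1 and -1. With E4, 8 called members lie below the lower line, among them Malat1 (mean of 1256 CPM without TMM factors), and 2 above the upper line.

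Malat1 (chromosome 19, 5795690 to 5802672, minus strand), a nuclear speckle RNA that is among the most abundant lincRNAs of most tissues, fell with E4. Its CPM ran from 1281 to 3379 (median 1573) in vehicle-treated mice, from 669 to 2458 (median 1404) with E2, from 468 to 1130 (median 803) with E4 and from 522 to 1462 (median 917) with TAM. No E4 library reached the lowest vehicle library, whereas E2 and TAM overlapped with vehicle. The E2 overlap came from libraries C6, C8 and C9. Libraries C26, C27 and C29, from animals with higher numbers, lay below every vehicle library. The log2 fold change with E4 was -1.23 ± 0.32 (SE, adjusted p = 0.00925). It was -0.34 with E2 (adjusted p = 0.703) and -0.95 with TAM (adjusted p = 0.0915), and the direct comparison of E4 with E2 gave -0.89 (adjusted p = 0.062). The highest vehicle library was C3, at 3379, and without it the E4 value was -0.96 (adjusted p = 0.0373), inside the fold threshold.

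Neat1, the neighbor of Malat1 on chromosome 19 and the scaffold of paraspeckles, did not pass the test with any treatment. Its CPM was 2578 ± 438 with vehicle, 2741 ± 399 with E2, 2217 ± 389 with E4 and 2173 ± 452 with TAM (SD, n = 6 each), with log2 fold changes of 0.09, -0.22 and -0.25. Per kilobase of exon, Malat1 was at 180 and Neat1 at 117 CPM over all libraries. 1700020I14Rik (Cyrano), a conserved RNA that directs the decay of a microRNA, fell with E4 from 237 ± 37.9 to 167 ± 17.8 CPM (SD, n = 6 each), without overlap. The E4 value was -0.51 ± 0.11 on the log2 scale (SE, adjusted p = 0.0035), and -0.36 as compared with E2 (adjusted p = 0.0345). 2900097C17Rik (Norad), a cytoplasmic RNA that binds Pumilio proteins, was at 576 ± 193, 561 ± 120, 721 ± 97.6 and 645 ± 172 CPM with vehicle, E2, E4 and TAM (SD, n = 6 each). Of its words, 39.5% also occur in Gm7292. Pvt1, which lies beside Myc, was at 16.2 ± 6.77, 14.4 ± 2.31, 18.2 ± 2.94 and 15.4 ± 5.60 CPM in the same order. Neither passed the test with any treatment. The remaining RNA of this list, Miat, is described with the libraries that stood apart. Of the 13 nuclear and general RNAs looked for, 6 were members, 5 have another biotype, and 2 lay below 2 CPM.

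On the X chromosome, Xist (103460366 to 103483254, minus strand), which coats the inactive X in female cells, fell with E4. Its CPM was 610 to 1024 (median 652) with vehicle, 473 to 948 (median 623) with E2, 430 to 591 (median 468) with E4 and 467 to 595 (median 559) with TAM. Every E4 and every TAM library lay below every vehicle library. The log2 fold change was -0.56 ± 0.17 (SE, adjusted p = 0.0222) with E4, -0.44 with TAM (adjusted p = 0.144) and -0.13 with E2 (adjusted p = 0.821). Its exons overlap those of Tsix and other genes over 12.6% of their length. The activators encoded beside it did not pass the test. The mean CPM of Jpx was 9.26 ± 0.98 without hormone and 8.68 ± 0.779 after E4, and that of Ftx 25.3 ± 6.73 and 20.05 ± 2.22 (SD, n = 6 each). With E4 their log2 fold changes were -0.09 and -0.33 (adjusted p = 0.502 and 0.0694). Firre, the other of the 4 X-linked RNAs looked for, has another biotype.

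The imprinted members did not pass the test in any comparison with vehicle. Meg3 (chromosome 12, 109541001 to 109571726, plus strand), expressed from the maternal allele, was the most abundant member at a mean of 3165 CPM. OVX C5 had 290 CPM and the rest of that group 3114 to 5032. TAM C35 had 412 and the rest of that group 2567 to 4077, and the level ranged from 2069 to 3378 with E2 and from 2315 to 4271 with E4. Its log2 fold changes were -0.20, 0.14 and -0.09 with E2, E4 and TAM, each with a standard error of 0.44. Mirg, a microRNA host of the same imprinted domain, was at 16.99 ± 5.96, 16.2 ± 3.76, 16.1 ± 1.73 and 15.8 ± 5.35 CPM with vehicle, E2, E4 and TAM (SD, n = 6 each). H19, a maternally expressed growth-restraining RNA, was at 13.2 ± 3.82, 11.1 ± 3.39, 8.63 ± 4.13 and 11.3 ± 5.58 CPM (SD, n = 6 each), and its log2 fold change of -0.61 with E4 lay within the spread (adjusted p = 0.147). Of the 10 imprinted RNAs looked for, the other 7 have another biotype.

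Both members of the smooth muscle microRNA locus on chromosome 18 fell with E4. Carmn is known from smooth muscle cells and as the host of miR-143 and miR-145, although its gene body in this annotation holds no microRNA, and Bvht (Braveheart) lies beside it on the opposite strand and is known from cardiac commitment. Carmn was at 42.4 to 151.5 CPM (median 115.1) with vehicle, 40.1 to 115.0 (median 59.3) with E2, 34.9 to 51.65 (median 42.2) with E4 and 35.3 to 148.9 (median 50.6) with TAM. The E4 libraries lay close together at the bottom of the vehicle range and overlapped with 1 vehicle library, C2. Bvht was at 41.8 to 97.1 CPM (median 81.3) with vehicle, 35.7 to 80.3 (median 55.4) with E2, 25.04 to 38.3 (median 32.04) with E4 and 30.5 to 98.4 (median 43.4) with TAM, and the E4 and vehicle libraries did not overlap. The log2 fold changes with E4 were -1.27 ± 0.34 for Carmn (SE, adjusted p = 0.0112) and -1.21 ± 0.26 for Bvht (SE, adjusted p = 0.00286). With E2 they were -0.61 and -0.43 (adjusted p = 0.391 and 0.435). As compared with E2, E4 lowered Bvht by a log2 fold change of -0.78 (adjusted p = 0.0464), and gave -0.66 for Carmn (adjusted p = 0.187). The 5 smooth muscle markers (Acta2, Myh11, Tagln, Cnn1 and Smtn) were all tested, and 0 changed with E4. Their summed CPM was 2261 to 4837 (median 3205) with vehicle and 2673 to 4577 (median 3119) with E4. TAM C35, which had the highest smooth muscle sum (7936), also had the highest Carmn and Bvht of its group. With E4, 3 of 5 fibroblast markers were lower, with summed CPM of 2184 to 3563, as compared with 3300 to 4825 with vehicle. The part of either list in these values was not tested. Of the 12 vascular RNAs looked for, Carmn was the only member, since 5 have another biotype, 4 lay below 2 CPM and 2 are not listed under these names. Bvht was added because it was called. Members on chromosome 18 were left out of the promoter search described above.

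Among the 22 microRNA hosts, 0 changed with E2 or TAM and 7 fell with E4, of which 1 passed the fold threshold. Over all 272 members 49 fell with E4, and of all genes tested 12.5%. With E2 and with TAM, 4.16% and 2.21% of all genes tested changed. Mir142hg was at 1.04 to 4.85 CPM (median 2.03) with vehicle, 1.55 to 14.9 (median 2.41) with E2, 0.461 to 1.66 (median 0.795) with E4 and 0.979 to 2.03 (median 1.48) with TAM. The E4 group was the lowest by its median but overlapped with vehicle. Its log2 fold change was -1.43 ± 0.51 (SE, adjusted p = 0.0474) with E4 as compared with vehicle. As compared with E2 it was -2.33, given as a description, since Mir142hg reached 2 CPM only through the E2 group (mean 1.57 CPM without that group, 1.71 without E2 C9). With 1 library left out at a time, the call against vehicle was lost in 13 of 24 fits, with log2 fold changes over all 24 fits of -1.73 to -1.09 and adjusted p up to 0.1515. That call held in 2 of 8 other alternatives. The highest E2 library was C9, and without it the difference from E2 was -1.38. A430106G13Rik, near the leukocyte gene Ptprc, was at 15.8 CPM in E2 C9 and at 1.21 to 2.36 in the other E2 libraries, 1.87 to 2.66 with vehicle and 0.530 to 1.55 with E4. It too reached 2 CPM only through the E2 group (mean 1.73 CPM without that group, 1.75 without E2 C9). Its log2 fold change of -1.87 with E4 as compared with E2, given as a description, was -0.69 without E2 C9. All 5 T cell markers were tested, and all 5 were lower with E4 than with E2. In E2 C9 their summed CPM was 174.4, as compared with a median of 5.91 in the E2 group. It was 4.17 to 26.7 with vehicle and 2.22 to 5.51 with E4. The summed CPM of the 5 B cell markers, all of which were lower with E4 than with vehicle, was 4.499 to 31.1 with vehicle and 2.11 to 6.11 with E4. All 5 macrophage markers were also lower with E4 than with E2 (median log2 fold change -1.08), with summed CPM of 281 to 510 and 620.7 to 1035. The part of these cells in the values of both hosts was not tested.

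Mir17hg, which is induced by Myc and held the seeds shown above, fell with E4 (log2 fold change -0.67 ± 0.16, SE, adjusted p = 0.00581). Its mean CPM was 6.74 ± 0.959 without hormone and 4.23 ± 0.893 after E4 (SD, n = 6 each), without overlap. It was also lower with E4 than with E2 (-0.60, adjusted p = 0.0174). AL805899.1, the host of miR-31, had log2 fold changes of -0.89 with E4 as compared with vehicle (adjusted p = 0.0215) and -0.95 as compared with E2 (adjusted p = 0.0233). The hosts of miR-101a (E130102H24Rik, -0.53), of let-7 (6720427I07Rik, -0.37), of miR-1839 (2900076A07Rik, -0.38) and of the annotated microRNA gene Gm25649 (Gm48228, -0.26) made up the rest. Gm48228 shares 69.3% of its exon length with Selenok pseudogenes. Of the 5 snoRNA hosts, 4 hold an annotated snoRNA and Snhg20 was counted by its name. Snhg18 and 9430037G07Rik fell with E4 (both -0.51, adjusted p = 0.0469 and 0.0431), and Snhg6, Snhg12 and Snhg20 had log2 fold changes of -0.23, -0.14 and -0.00.

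The members called as higher with E2 have no role known with certainty. Gm15408 (chromosome 5, 149006962 to 149012776, plus strand) was at 1.48 to 2.63 CPM (median 1.89) with vehicle, 3.33 to 5.58 (median 4.66) with E2, 2.27 to 3.99 (median 3.30) with E4 and 1.06 to 3.13 (median 1.497) with TAM. All 6 E2 libraries lay above all vehicle and all TAM libraries, with E4 between E2 and vehicle by its median. Its log2 fold changes were 1.18 ± 0.22 (SE, adjusted p = 0.00153) with E2 and 0.74 ± 0.22 (SE, adjusted p = 0.0213) with E4, and -1.43 ± 0.22 for TAM as compared with E2 (SE, adjusted p = 0.000234). Gm10032 (chromosome 14, 66784480 to 66793758, plus strand) was at 7.26 to 21.3 CPM (median 15.5) with vehicle, 26.8 to 44.3 (median 30.9) with E2, 21.9 to 43.3 (median 27.6) with E4 and 13.2 to 29.8 (median 16.7) with TAM. Every library of either estrogen exceeded every vehicle library, with log2 fold changes of 1.09 ± 0.26 (SE, adjusted p = 0.0133) and 1.02 ± 0.26 (SE, adjusted p = 0.00816). Both values lay near the fold threshold and fell below it without OVX C4 (0.95 and 0.88). With 1 library left out at a time, the call held in 22 of 24 fits with E2 and in 19 of 24 with E4. Each call held in 6 of 8 other alternatives. Dpysl2, the nearest coding gene at 9106 bp, had log2 fold changes of 0.19 and 0.66 (adjusted p = 0.888 and 0.151).

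Gm36161 (chromosome 13, 120010390 to 120018931, plus strand) was at 5.01 to 8.57 CPM with vehicle, 8.11 to 14.5 with E2, 3.36 to 5.45 with E4 and 4.43 to 6.80 with TAM. It rose with E2 by a log2 fold change of 0.96 ± 0.16 (SE, adjusted p = 0.00057), and was lower with E4 (-1.35, adjusted p = 3.8e-05) and TAM (-1.07, adjusted p = 0.000214) than with E2, without overlap. The 5 macrophage markers, all tested, moved the same way, with 5 of 5 higher with E2 than with vehicle, and 5 of 5 lower with E4 and with TAM than with E2. Their summed CPM was 413 to 737.5 with vehicle, 620.7 to 1035 with E2, 281 to 510 with E4 and 346 to 526 with TAM. Their part in this difference was not tested. Of its 50-base words, 64.9% also occur in transcripts of other genes, so its reads may be divided among copies. Gm21188, with which it shares most of these, had a log2 fold change of 0.65 with E2 (adjusted p = 0.0117). Gm3289 (chromosome 6) was at 2.77 ± 1.49 CPM with vehicle, 5.38 ± 2.52 with E2, 2.99 ± 0.874 with E4 and 2.44 ± 0.635 with TAM (SD, n = 6 each). It was called as lower with TAM than with E2 (-1.14 ± 0.31, SE, adjusted p = 0.0295), and lost that call in 7 of 24 fits with 1 library left out, with the smallest difference without E2 C9 (-0.88, adjusted p = 0.104). It shares 22.9% of its exon length with Gm30270.

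In the other direction, AC153155.2, a second transcript of the chromosome 18 interval near Arhgef37, was the only member called as lower with E2. Its CPM was 10.3 to 27.2 (median 17.6) with vehicle, 4.32 to 12.1 (median 6.25) with E2, 5.43 to 19.9 (median 10.9) with E4 and 7.66 to 30.3 (median 19.8) with TAM. The E2 group was the lowest by its median and overlapped with each of the others. Its log2 fold change was -1.26 ± 0.35 (SE, adjusted p = 0.04) with E2, and 1.49 ± 0.35 for TAM as compared with E2 (SE, adjusted p = 0.0112). The first was lost in 9 of 24 fits with 1 library left out, with adjusted p up to 0.105, and the second in none. A730020M07Rik (chromosome 3, 121634936 to 121643485, minus strand) was at 3.14 ± 0.872 CPM with vehicle, 1.61 ± 0.25 with E2, 1.54 ± 0.31 with E4 and 1.96 ± 0.608 with TAM (SD, n = 6 each). It reached 2 CPM only through the vehicle group (mean 1.70 CPM without it), so its log2 fold changes of -0.96 with E2, -1.02 with E4 and -0.68 with TAM are a description. D830026I12Rik (-0.72 and -0.84) and AC132253.9 (-0.58 and -0.94) also fell with E2 and with E4. For AC132253.9, 73.3% of words occur in other genes. Without a call, Gm16046 (0.94) and Lsmem2 (0.61) rose with E2, and 1700047M11Rik (-0.76), Gm26660 (-0.56), Gm43660 (-0.53) and Gm12688 (-0.52) fell.

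**Figure D3:**
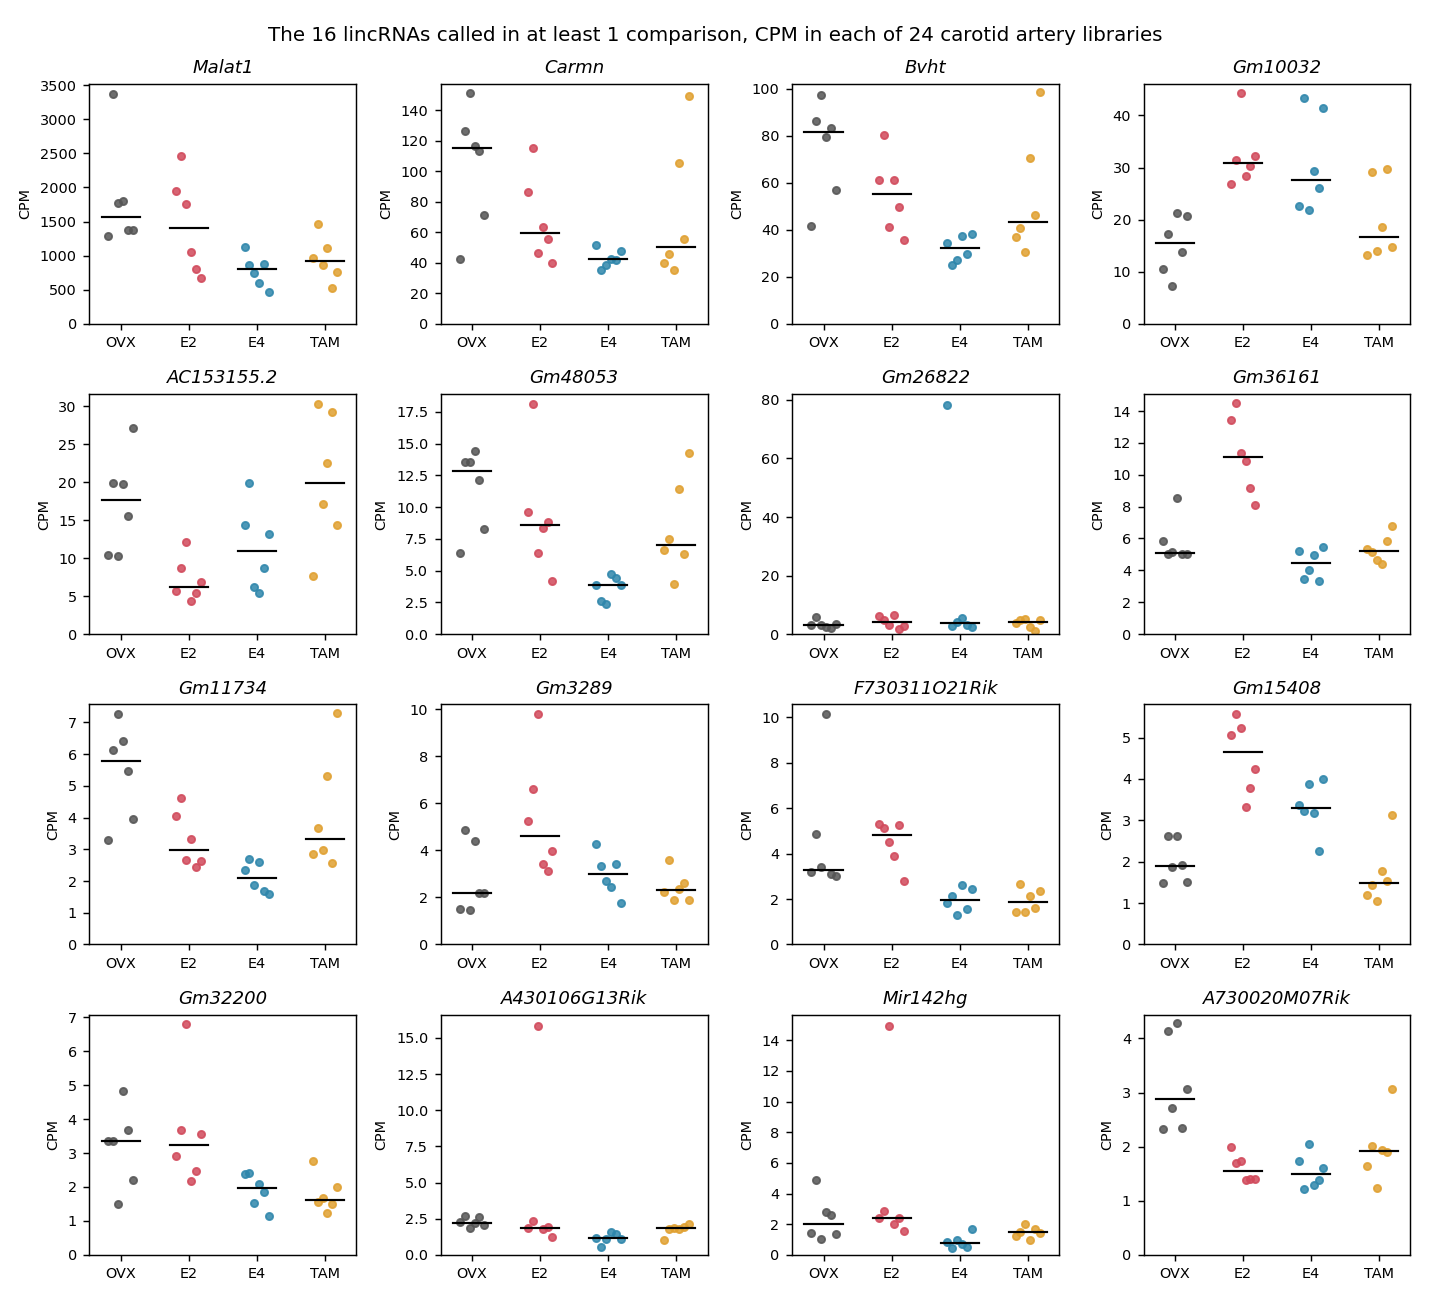
CPM (TMM-scaled, linear axes from 0) of the 16 members called in at least 1 of the 6 comparisons, with 1 point per library, 6 libraries per group, and a bar at the group median. Gm26822 in E4, and A430106G13Rik and Mir142hg in E2, each show 1 library far above the rest of its group.

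The lowest fold change with E4 belonged to Gm48053 (chromosome 10, 56909674 to 56914765, minus strand), a transcript of 1722 exon bases. It was at 6.38 to 14.4 CPM (median 12.9) with vehicle, 4.19 to 18.1 (median 8.60) with E2, 2.39 to 4.73 (median 3.90) with E4 and 3.97 to 14.3 (median 7.04) with TAM. The 6 E4 libraries lay below all vehicle libraries. Its log2 fold change was -1.65 ± 0.32 (SE, adjusted p = 0.00167) as compared with vehicle and -1.34 ± 0.32 (SE, adjusted p = 0.00931) as compared with E2, and both calls held with each of the 24 libraries left out in turn. Gja1, the nearest coding gene at 507161 bp, encodes the gap junction protein connexin 43 and had a log2 fold change of 0.13 with E4 (adjusted p = 0.592). Gm11734 (chromosome 11, 117523603 to 117532205, plus strand) was at 3.28 to 7.26 CPM (median 5.80) with vehicle, 2.43 to 4.61 (median 2.98) with E2, 1.61 to 2.70 (median 2.10) with E4 and 2.58 to 7.29 (median 3.33) with TAM. Its log2 fold change with E4 was -1.34 ± 0.25 (SE, adjusted p = 0.00137), without overlap, and -0.72 with E2 (adjusted p = 0.106).

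F730311O21Rik (chromosome 1, 132342023 to 132349626, plus strand) separated vehicle and E2 from E4 and TAM. It was at 3.04 to 10.1 CPM (median 3.29) with vehicle, 2.79 to 5.32 (median 4.83) with E2, 1.31 to 2.63 (median 1.98) with E4 and 1.44 to 2.68 (median 1.86) with TAM. Its log2 fold changes were -1.21 (adjusted p = 0.00453) with E4 and -1.25 (adjusted p = 0.0234) with TAM as compared with vehicle, -1.17 (adjusted p = 0.009) and -1.22 (adjusted p = 0.00813) as compared with E2, and -0.04 (adjusted p = 0.983) with E2. The highest vehicle library was C5, at 10.1, and the other 5 ran from 3.04 to 4.85. Without C5 the values against vehicle were -0.81 (adjusted p = 0.0123) and -0.85 (adjusted p = 0.0422), inside the fold threshold. The call of F730311O21Rik with TAM against vehicle held in 19 of 24 fits with 1 library left out, with adjusted p up to 0.0619. It held in 4 of 8 other alternatives. Gm32200 (chromosome 1) was at 3.60 ± 1.67 CPM with E2 and 1.79 ± 0.535 with TAM (SD, n = 6 each), and its call of -1.01 (adjusted p = 0.0332) was lost in 7 of 24 fits with 1 library left out, among them that without E2 C9 (-0.72, adjusted p = 0.125), and held in 1 of 8 other alternatives.

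Among members inside the fold threshold, Lncbate1, a transcript known from brown fat, was lower with E4 (-0.95, adjusted p = 0.00361) and TAM (-0.98, adjusted p = 0.0215), at 8.18 ± 2.59 CPM with vehicle, 6.10 ± 1.78 with E2, 4.23 ± 0.904 with E4 and 4.15 ± 0.85 with TAM (SD, n = 6 each). Of 6 adipocyte markers, all tested, 1 was higher and 2 were lower with E4, and 0 changed with TAM. Their summed CPM was 3244 to 7080 with vehicle, 3354 to 5002 with E4 and 2893 to 4179 with TAM. The highest vehicle sum was that of OVX C5. The part of these markers in the Lncbate1 values was not tested. AW112010, an interferon-induced transcript of immune cells, had a mean CPM of 22.1 ± 5.13 without hormone and 13.8 ± 3.5 after E4 (SD, n = 6 each) and fell by 0.68 on the log2 scale (adjusted p = 0.00541). Gm37494 went from 61.7 ± 8.57 CPM without hormone to 40.7 ± 5.59 with E4 and 46.3 ± 4.79 with TAM (SD, n = 6 each), with log2 fold changes of -0.60 (adjusted p = 0.00125) and -0.42 (adjusted p = 0.049).

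The highest fold change with E4, that of Gm26822 (chromosome 16, 10827927 to 10833507, plus strand), rested on 1 library. E4 C16 was at 78.2 CPM, the other 5 E4 libraries at 2.56 to 5.38, and the vehicle libraries at 1.98 to 5.80. E4 C16 also had a summed CPM of 107 for 5 thyroid and parathyroid markers, of which 2 passed the filter and were tested. The median of this sum was 0.819 in the E4 group, and another E4 library reached 2961 with Gm26822 inside the range of the rest. Its part in the value of Gm26822 was not tested. The log2 fold change was 2.26 (adjusted p = 0.027), and 0.12 (adjusted p = 0.842) without E4 C16. Gm10032 was the other of the 2 members called as higher with E4. Gm10874 (0.93, adjusted p = 0.0272) shares 50.6% of its exon length with pseudogenes, and 38.8% of its words occur elsewhere, mainly in Got2, which rose by 0.85 (adjusted p = 0.0347).

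TAM raised 1 member, Zfp469, which GENCODE M21 lists as a lincRNA and RefSeq as a protein-coding gene. It was at 6.45 to 10.3 CPM (median 8.21) with vehicle, 8.39 to 12.7 (median 10.1) with E2, 6.77 to 9.85 (median 7.78) with E4 and 11.8 to 21.2 (median 15.2) with TAM. Every TAM library exceeded every vehicle and every E4 library. The log2 fold change of TAM was 0.94 ± 0.14 (SE, adjusted p = 0.00263) as compared with vehicle, 0.63 ± 0.14 (SE, adjusted p = 0.0077) as compared with E2 and 0.95 ± 0.14 (SE, adjusted p = 0.000962) as compared with E4. It is the member that differed between TAM and E4. The members that fell with TAM were F730311O21Rik, Lncbate1, Gm5165, Gm20342 and Gm37494. The log2 fold changes with TAM and with E4, which share the vehicle libraries, were -0.56 and -0.69 for Gm5165 and -0.55 and -0.43 for Gm20342.

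**Figure D4:**
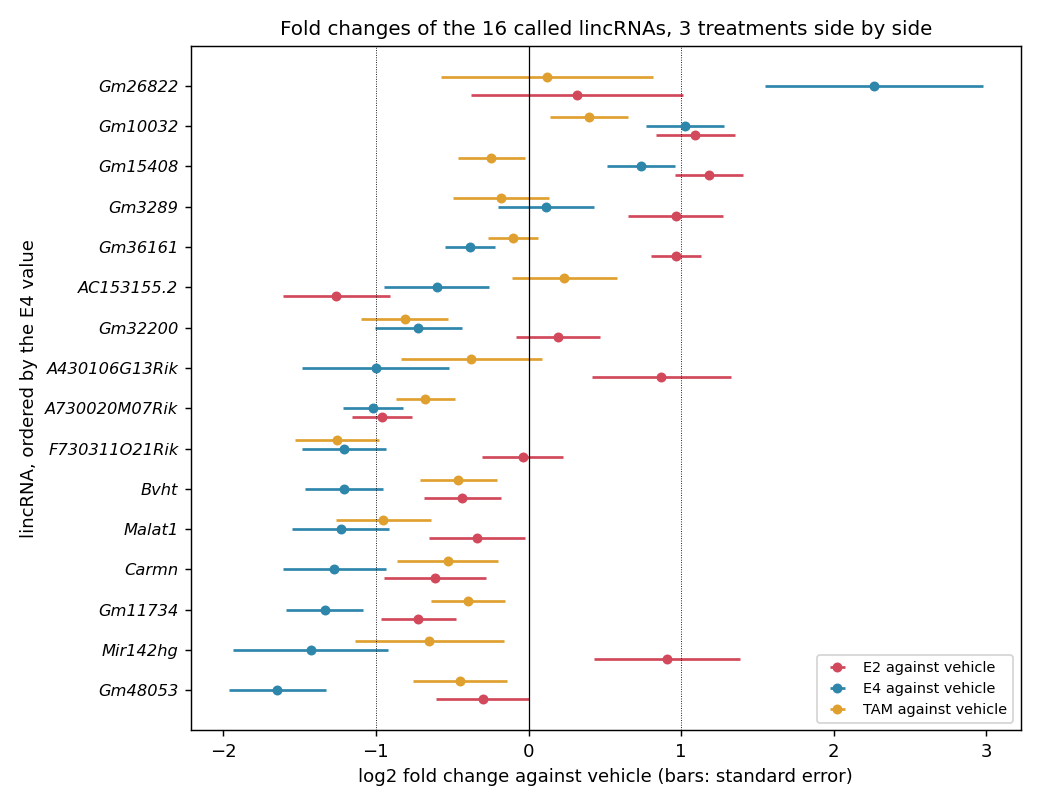
Log2 fold changes against vehicle, with standard errors as bars, of the 16 called members for E2, E4 and TAM, ordered by the E4 value. F730311O21Rik has E4 and TAM near -1.2 with E2 near 0, and Gm15408 has E2 and E4 above 0 with TAM below 0.

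A group of lincRNAs was low in the libraries with the lowest sums of sympathetic neuron markers. In both OVX C5 and TAM C35, 32 members (11.8%) were under 0.25 of the median of the other libraries of their group, as compared with 5.89% of all genes tested and 6.17% of protein-coding genes of at least 2 CPM, and 0 members were over 4 times that median in both. The group was chosen by these values, so the counts are a description. It includes Meg3 and Miat, an RNA also known from neurons, at 22.5 CPM in OVX C5 against 236 to 383 for the rest of the group, and at 29.6 in TAM C35 and 209 to 290 in the other TAM libraries. Mir124a-1hg, the host of the neuronal miR-124, had 0.22 CPM in OVX C5, 23.0 to 42.4 in the rest of that group, 1.16 in TAM C35 and 19.8 to 32.02 in the other TAM libraries. C78859, the host of miR-138, was at 1.71 in OVX C5 and 64.9 to 122.4 in the others, and at 4.15 in TAM C35 and 52.2 to 91.5 in the others. Gm9866, Gm29374 and Dbpht2 had 0 counts in OVX C5, and Gm42504 had a deposited value of 0.33. All 32 had an adjusted p of 0.05 or more with each treatment, with median log2 fold changes of -0.10, 0.27 and 0.08 with E2, E4 and TAM. Without both libraries, the number called was 7 with E4, 5 with E2 and 0 with TAM, with no share of all genes computed for that fit. The members that then lost the call with E4 were A730020M07Rik, F730311O21Rik and Mir142hg, while Gm3289 and Gm36161 joined those called with E2. The log2 fold changes of these lost calls were then -0.90, -0.80 and -1.35, in that order.

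**Figure D5:**
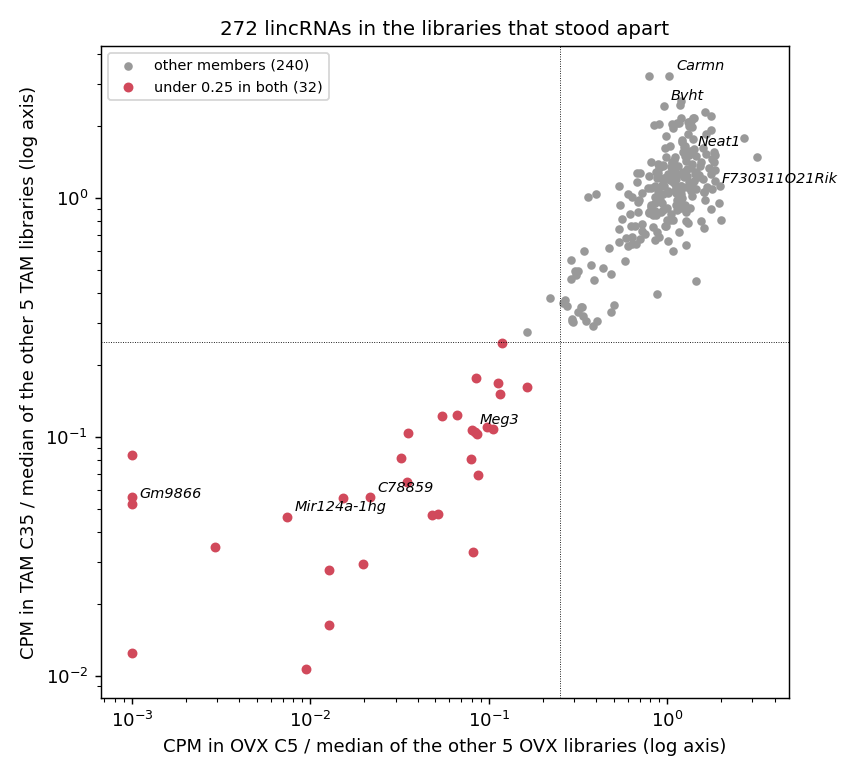
Level of each of the 272 members in OVX C5 (x axis) and TAM C35 (y axis) relative to the median of the other 5 libraries of the group, on log axes, with ratios of 0 drawn at 0.001. The 32 members in red lie under 0.25 in both libraries, and Meg3, Mir124a-1hg and C78859 are among them.

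Per kilobase of exon the members higher than Malat1 were short or repeated. Bc1 (chromosome 7, 144914470 to 144914637, plus strand), a neuronal RNA made by RNA polymerase III, was at 559 CPM per kb and at 101 ± 41.0, 84.4 ± 6.93, 110 ± 61.9 and 81.0 ± 19.1 CPM with vehicle, E2, E4 and TAM (SD, n = 6 each). Its annotated transcript of 168 bases carries an internal run of 23 A, shown in capitals because a poly(A) kit can capture such a run, and 31.1% of its words occur elsewhere.
Bc1: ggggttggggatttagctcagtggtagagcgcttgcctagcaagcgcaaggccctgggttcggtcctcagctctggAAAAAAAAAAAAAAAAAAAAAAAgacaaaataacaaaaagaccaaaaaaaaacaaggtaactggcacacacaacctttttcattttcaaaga
AY036118 (428 CPM per kb) and Gm42418 (247) lie on opposite strands of the same stretch of chromosome 17, which is known for ribosomal RNA sequence, where AY036118 (923 exon bases) lies within Gm42418 (1831 exon bases). With a further annotated gene there, CT010467.1, 99.5% of the exon bases of Gm42418 are shared. The deposited counts divided reads from shared bases among genes also across strands, so these counts cannot be assigned to 1 of these genes. Gm42418 was at 1307 CPM in E2 C6 and 339 to 540 in the other E2 libraries, and at 892 in TAM C35 and 301 to 488 in the other TAM libraries. Neither passed the test against vehicle.

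Gm27000 on the X chromosome (296 CPM per kb) shares 93.7% of its words with Meg3 on chromosome 12, and was at 83.7 CPM in OVX C5 and 90.2 in TAM C35, low in the same libraries as Meg3. Its first shared word is printed as an example of a read that could come from either.
Gm27000 and Meg3: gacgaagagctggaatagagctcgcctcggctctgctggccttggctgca
Gm10076 (425 CPM per kb, 69.8% of words elsewhere, mainly in Rpl41) fell with E4 by a log2 fold change of -0.29 (adjusted p = 0.0346), and Rpl41 was at -0.31 (adjusted p = 0.114). Gm47162 (193 CPM per kb) shares all its exon bases with a pseudogene of Scp2 and did not pass the test with any treatment (adjusted p of 0.136 or more against vehicle). In all, 29 members had at least 10% of their words elsewhere and 161 had none. The 139 members with no shared exon and under 10% of words elsewhere held 9 of the 10 called with E4, all 3 called with E2 and the 1 called with TAM.

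Another 44 members start within 1000 bp of a coding gene on the opposite strand. None of these changed with E2 or TAM, as compared with 4.16% and 2.21% of all genes tested. With E4, 2 members fell while 11 of the coding partners passed the test. Of all genes tested 12.5% fell with E4, and of protein-coding genes of at least 2 CPM 26.2% passed the test, so the share of the partners was near that of their class. No pair had both at an adjusted p under 0.05. Across the 44 pairs, which share libraries and in part exons, Pearson's r between the log2 fold changes of member and partner was 0.42 with E4, 0.14 with E2 and 0.03 with TAM.

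Each group holds animals from a lower series of numbers (2 to 20 over all groups) and a higher one (24 to 39), and no source says that these series are batches. Within the lower and the higher series, every called member kept the sign of each called difference. The calls were made on both series together, and some of these differences had selected their members, so this agreement was largely fixed in advance. In the higher series alone no difference was called. There the adjusted p for E4 against vehicle was 0.256 for Malat1, 0.269 for Bvht and 0.2505 for Gm48053. In the lower and the higher series in turn, Malat1 had log2 fold changes with E4 of -1.18 and -1.08, Bvht of -1.40 and -0.99, Gm48053 of -2.02 and -1.22 and Gm11734 of -1.33 and -1.24. Gm15408 had log2 fold changes with E2 of 1.30 and 1.14. Other values lay further apart between the series. With E4 as compared with vehicle, F730311O21Rik had -1.61 and -0.45 and Gm26822 had 2.95 and 0.47. With E4 as compared with E2, A430106G13Rik had -2.84 and -0.28 and Mir142hg -3.17 and -0.99. Gm15408 had -2.11 and -0.79 for TAM as compared with E2, and AC153155.2 had -0.77 and -1.96 for E2 as compared with vehicle.

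The members nearest the limit of the selection were Gm47465, Gm28592, Gm16001, A730020M07Rik and Gm33280, at means of 2.15 to 2.04 CPM, and the lincRNAs nearest below it were Gm47469, 2310069B03Rik, Gm20735, Gm47782 and Gm32219, at 1.98 to 1.92 CPM.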

How the data were processed

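RNA from carotid arteries of 24 mice was extracted with TRIzol and sequenced from TruSeq Stranded mRNA libraries, per the labels. Per the submitters' processing notes, the tools were bcl2fastq 2.17, Trim Galore, Bowtie2 and featureCounts, on mm10 (GRCm38) with GENCODE release 21. The authors deposited an estimated count per gene and library, since 8.87% to 9.80% of values carry decimals where reads were divided among genes. These were rounded here. Genes were matched to GENCODE biotypes, and 272 lincRNA members were taken at a mean of at least 2 CPM.

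With edgeR 4.0.16 (R 4.3.3), all 24 libraries entered 1 quasi-likelihood fit with TMM scaling and filterByExpr, giving 6 contrasts adjusted by Benjamini-Hochberg. Standard errors are the absolute log2 fold change over the root of F. On simulated data with 200 changed genes among 25033, 197 were called, which is a check of the code only. The share of differences near the fold threshold that would be called in these libraries was not tested. Named genes are the members called in any comparison, the 3 highest and 3 lowest fold changes per treatment at an adjusted p under 0.05, the 10 highest members by CPM and by CPM per kb, the role lists, and the 5 lincRNAs on each side of the limit. The other members named were chosen after their values were seen. Members and lists were chosen with earlier results of these data known. Alternatives were DESeq2 1.42.0, RLE scaling, no filter, fewer groups, the animal-number series, and leaving libraries out. Words of 50 bases were compared between annotated transcripts. Separate animals are given by number only, so p-values measure the spread between these libraries.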

Additional observations from a re-analysis of the deposited data

Results flagged for a closer look

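For 34 members, each group of 6 libraries was searched for a library whose gap to its nearest neighbor, divided by the range of the group, exceeded Dixon's critical value. This found 19 of 136 groups, and 8 of the 19 were in OVX C5 or TAM C35. Chance flags about 1 in 20 independent and unselected groups, which these are not, so the count is a description.

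Among called members, Malat1 was at 3379 CPM in OVX C3 against 1281 to 1804 in the rest of its group (ratio 0.751). Gm10032 was at 44.3 in E2 C9 against 26.8 to 32.3 (0.687). Gm26822 was at 78.2 in E4 C16 against 2.56 to 5.38 (0.963). Gm36161 was at 8.57 in OVX C5 against 5.01 to 5.85 (0.763), and F730311O21Rik at 10.1 in OVX C5 against 3.04 to 4.85 (0.744). Gm15408 was at 3.13 in TAM C35 against 1.06 to 1.79 (0.649). Gm32200 was at 6.79 in E2 C9 against 2.17 to 3.69 (0.672). A430106G13Rik was at 15.8 in E2 C9 against 1.21 to 2.36 (0.921), and low at 1.03 in TAM C11 against 1.76 to 2.16 (0.648). Mir142hg was at 14.9 in E2 C9 against 1.55 to 2.88 (0.901). Both of these reached 2 CPM only with E2 C9, so their E2 values are the ones that selected them.

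Among members of the role lists, 2900097C17Rik was low in TAM C35, at 316 CPM against 636 to 785 (0.681), as was Miat, at 29.6 against 209 to 290 (0.687). Pvt1 was low in OVX C5, at 3.12 against 14.7 to 21.1 (0.643), and in E4 C39, at 12.5 against 18.4 to 20.7 (0.714). Jpx was at 11.1 in OVX C3 against 8.41 to 9.17 (0.72).

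For Gm42418 the E2 C6 level was 1307 CPM, the others 339 to 540 (0.793), and the TAM C35 level 892, the others 301 to 488 (0.683). AY036118, which lies within it, was at 1166 in E2 C6 against 300 to 484 (0.788) and at 773 in TAM C35 against 257 to 424 (0.677).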

How the results depend on the processing

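The number of members called against vehicle was 3 with E2, 10 with E4 and 1 with TAM. It was 13, 64 and 6 with no fold threshold, and 0, 0 and 0 within the higher series of animal numbers, which has 2 to 3 libraries per group. With the series as a covariate it was 5 for E2. Without OVX C5 and TAM C35 it was 5 for E2 and 0 for TAM. For TAM it was also 0 within the lower series and with only the 2 groups compared in the fit. For E4 against E2, 5 members were called, 14 within the lower series, 0 within the higher, 37 with no fold threshold, and 3 among members with no shared exon and few words elsewhere, an alternative chosen after seeing the data. For TAM against E2 the count was 6, and 0 within the higher series or 21 with no fold threshold. For TAM against E4 it was 0, and 1 by DESeq2, without OVX C5 and TAM C35, or with no fold threshold. The share of all genes tested that passed was not computed for the alternative fits.

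With 1 library left out, the counts ran from 2 to 4 (E2), 6 to 14 (E4) and 0 to 3 (TAM) against vehicle, 4 to 9 (E4 against E2), 3 to 7 (TAM against E2) and 0 to 1 (TAM against E4). The 6 came without OVX C5, the 9 without E2 C29 and the 3 for TAM against E2 without E2 C8. Recomputing each called difference under each alternative gave 800 values, of which 689 still passed, 111 no longer passed and 0 turned in direction. In 12 of the 24 fits with 1 library left out that library was in neither group compared, and 3 of the differences had selected their members, so these counts are no measure of stability. A limit of 1 CPM gave 407 members, and one of 5 CPM gave 163. No paired analysis was possible because each animal number belongs to 1 mouse.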
